A study of Homo sapiens with 12 samples.

Results

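The RUNX genes RUNX1, RUNX2 and RUNX3, their shared partner CBFB and the corepressor genes CBFA2T2, CBFA2T3 and RUNX1T1 were followed in OPM-1 cells, an established human multiple myeloma line, after exposure to lenalidomide, a RUNX inhibitor or both. These 7 genes were chosen by name, as the proteins the inhibitor acts on and their closest cofactors, out of 38478 genes in the table. Levels are in RPKM, which is reads per kilobase of gene length scaled to the library's total. Averaged over the 12 samples, 6 of the 7 reached 0.5 RPKM and entered the tests, and RUNX1T1 did not. Cells were treated for 48 h with the vehicle DMSO, with 0.1 μM lenalidomide (LEN), with 1 μM of the RUNX inhibitor AI-10-104 (RUNXi) or with both agents at these doses (LEN+RUNXi). Each condition had 3 samples, which the study's methods describe as biological replicates. Poly(A) RNA of each sample was sequenced. All samples came from this 1 line, which carried no engineered allele, and all 4 conditions shared the same medium and exposure time. The question asked of these genes was how abundant the targets of AI-10-104 were and whether their own transcripts moved when they were inhibited.

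RUNX proteins bind DNA through the Runt domain and form a heterodimer with CBFβ, the product of CBFB, which does not touch DNA itself and strengthens the binding of its partner. RUNX1 is a master regulator of blood cell formation, RUNX2 of bone, and RUNX3 is best known in lymphocytes and sensory neurons. CBFA2T2, CBFA2T3 and RUNX1T1 encode related corepressors that bring histone deacetylases to DNA-binding factors, and RUNX1T1 is the partner fused to RUNX1 in a common leukemia translocation. The compound AI-10-104 keeps CBFβ from pairing with RUNX proteins, whereas lenalidomide turns the cereblon ubiquitin ligase against IKZF1 and IKZF3.

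Libraries held 16352548 to 31386210 reads assigned to genes, and the 3 LEN+RUNXi libraries (median 19417027) were all shallower than every DMSO library (median 30219883). All 9 plasma cell markers were expressed, at a summed level of 4497 to 4750 RPKM in DMSO, 4381 to 4533 in LEN, 4915 to 5164 in RUNXi and 4270 to 4505 in LEN+RUNXi, and the part of this difference in the results was not tested. Of 4 B cell, 3 T cell, 5 myeloid, 2 megakaryocyte and 4 osteoblast markers, 0 reached a mean of 0.5 RPKM. The erythroid marker HBB was read at 18.2 to 22.9 RPKM. RUNXi replicate 2 stood apart: without it, 427 genes were higher and 130 lower in the interaction of both agents, against 0 in either direction with it. The 6 tested members all had their highest RUNXi value in that library, which was the highest of its condition for 37.5% of all genes tested. Likewise all 6 were lowest in replicate 3 among the LEN+RUNXi samples, which was the lowest for 41.7% of all genes tested. For the members and the list genes named below, fold changes that rest on RUNXi samples are therefore also given without RUNXi replicate 2.

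By GENCODE 44 on GRCh38, RUNX1 spans chr21:34787801-36004667 on the minus strand, RUNX2 chr6:45328157-45664349 on the plus strand and RUNX3 chr1:24899511-24965121 on the minus strand. CBFB lies at chr16:67028984-67101058 on the plus strand, CBFA2T2 at chr20:33490075-33650036 on the plus strand and CBFA2T3 at chr16:88874858-88977207 on the minus strand. Values were counted over whole genes, so transcripts from alternative promoters were not told apart. SUPT3H overlaps RUNX2 on the opposite strand but shares 0 exonic bases with it.

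RefSeq (GRCh38.p14) promoter windows, 250 bases before to 50 bases after a transcript start, are shown for the 3 RUNX genes because RUNX proteins could in principle read them, and RUNX1 was the member whose level changed. The core RUNX motif TGTGGT was searched on both strands, and capitals mark its matches, all of which are in the reverse orientation ACCACA. Windows were searched for 5 of the 7 genes, with a pair each for RUNX2 and RUNX3. CBFB had no listed window, and RUNX1T1 was left out of the search.
RUNX1, chr21:34888650-34888949, minus strand: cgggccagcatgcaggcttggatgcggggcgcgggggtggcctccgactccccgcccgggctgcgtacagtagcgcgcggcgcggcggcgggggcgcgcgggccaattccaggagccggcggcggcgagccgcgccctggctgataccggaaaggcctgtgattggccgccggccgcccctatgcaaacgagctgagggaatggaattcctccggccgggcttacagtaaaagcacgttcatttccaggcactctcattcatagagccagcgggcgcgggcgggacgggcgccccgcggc
RUNX2, first window, chr6:45328080-45328379, plus strand: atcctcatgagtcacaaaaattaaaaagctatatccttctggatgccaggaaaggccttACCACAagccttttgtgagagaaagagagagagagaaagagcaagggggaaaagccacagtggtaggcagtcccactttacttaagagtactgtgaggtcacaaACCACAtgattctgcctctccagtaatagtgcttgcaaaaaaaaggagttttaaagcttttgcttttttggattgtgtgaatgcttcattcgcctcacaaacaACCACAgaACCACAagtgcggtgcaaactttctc
RUNX3, first window, chr1:24964961-24965260, minus strand: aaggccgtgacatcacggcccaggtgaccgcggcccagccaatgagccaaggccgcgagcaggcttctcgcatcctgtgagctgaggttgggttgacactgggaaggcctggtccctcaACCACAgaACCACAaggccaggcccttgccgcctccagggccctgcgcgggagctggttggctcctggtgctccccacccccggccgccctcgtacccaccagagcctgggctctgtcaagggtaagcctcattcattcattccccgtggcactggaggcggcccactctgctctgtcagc
The first RUNX2 window held 4 matches, which began 191 and 87 bases before the start and 16 and 24 bases after it. The first RUNX3 window held 2 matches, beginning 131 and 123 bases before the start. The pair with 2 bases between its matches, ACCACAgaACCACA, was taken from the RUNX3 window and also stood in the RUNX2 window. These windows are among the 3 that held it out of all 35116 promoter windows of that length. Because the string was picked from these sequences, its rarity is a description alone. At least 1 match was found in 13.1% of those windows and at least 2 in 1.31%. The RUNX1 window, the second windows of RUNX2 and RUNX3, and those of CBFA2T2 and CBFA2T3 held 0 matches. This says only that these letters are not in these stretches. The RUNX1 window lies within the gene, away from its annotated start at base 36004667, and the stretch at that start was not searched. The second windows of RUNX2 and RUNX3 also lie within their genes, whereas their first windows span the annotated starts.

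Among the 7 genes CBFB had the highest level per length, with a mean of 84.7 RPKM over the 12 samples, above 93.3% of the genes tested. RUNX3 followed at 19.4 RPKM, CBFA2T3 at 16.1, RUNX2 at 15.0, RUNX1 at 7.24 and CBFA2T2 at 2.45. CBFB, RUNX1 and CBFA2T2 were separated from their neighbours in this order in every sample. The ranges of RUNX3 (17.4 to 22.1 RPKM) and CBFA2T3 (14.1 to 18.1) overlapped, as did those of CBFA2T3 and RUNX2 (13.7 to 16.2). RUNX1T1 had 0 reads in all 12 libraries, where a count of 0 allows up to 3 reads, or 0.00615 to 0.0118 RPKM depending on the library. Such limits cover counting error only. Each of the 6 expressed members was counted with at least 418 reads in every sample. Counting error was at most 4.89% for CBFA2T2, the scarcest of them, and at most 2.66% for the others, and the coefficient of variation between replicates was 1.16% to 9.0%.

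**Figure D1:**
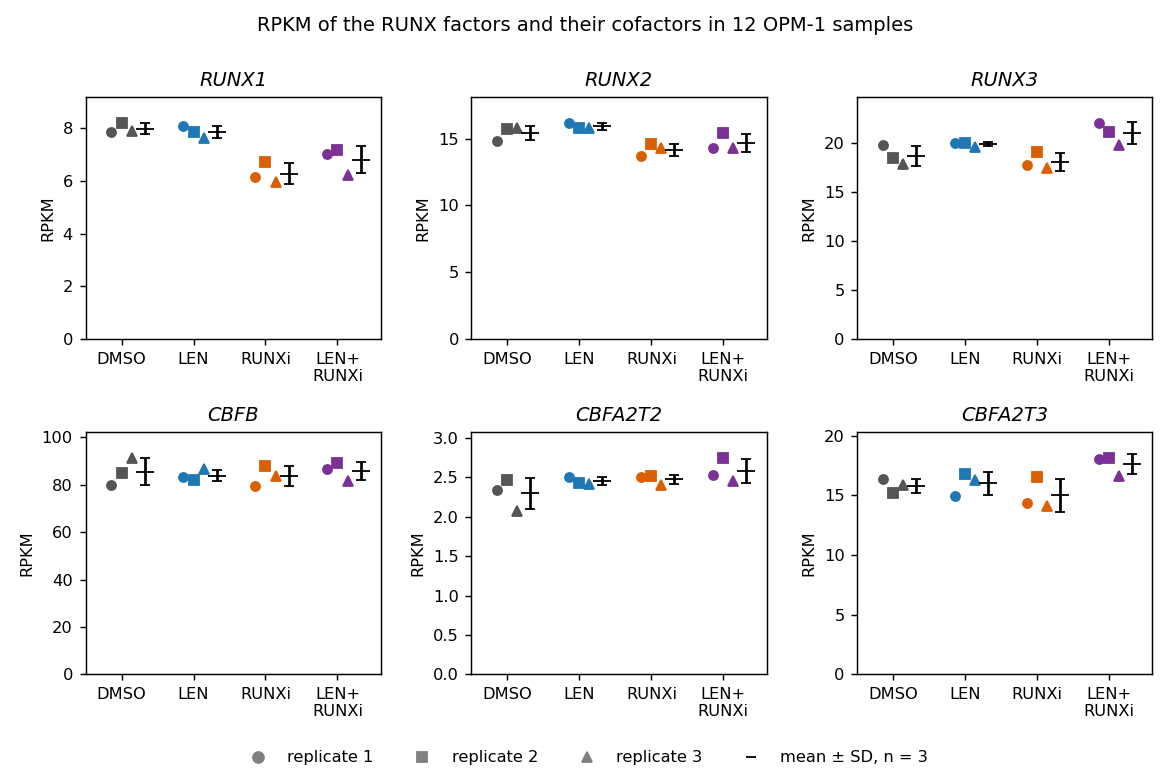
RPKM (vertical axes, from 0) of the 6 expressed members in DMSO, LEN, RUNXi and LEN+RUNXi samples. Coloured points are the 3 samples of a condition and the black bar is their mean ± SD; the RUNX1 points under RUNXi (5.96 to 6.73) lie below all DMSO points (7.85 to 8.22).

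The 3 RUNX genes together gave 42.2 ± 0.578 RPKM (SD, n = 3) in DMSO, 43.7 ± 0.634 in LEN, 38.5 ± 1.6 in RUNXi and 42.5 ± 1.88 in LEN+RUNXi. Per kilobase of the deposited gene length, RUNX3 held the largest share of this sum in DMSO, 44.4% ± 2.00 (SD, n = 3), RUNX2 36.6% ± 1.61 and RUNX1 19.0% ± 0.453. The RUNX1 share was 16.3% ± 0.421 in RUNXi and 16.0% ± 0.518 in LEN+RUNXi, and every sample of these conditions (15.4% to 16.7%) lay below every DMSO and LEN sample (17.8% to 19.4%). The RUNX3 share was 46.9% ± 0.573 in RUNXi and 49.5% ± 1.27 in LEN+RUNXi. Leaving out RUNXi replicate 2, the mean RUNXi sum was 37.6 RPKM, with shares of 16.1% for RUNX1 and 46.8% for RUNX3. The CBFB level was 2.03 ± 0.162 times the summed RUNX level in DMSO and 1.87 to 2.22 times over all samples.

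The order of RUNX2 and RUNX3 depended on the gene length used. The deposited lengths were 14668 bases for RUNX2, 5119 for RUNX3, 12080 for RUNX1 and 3136 for CBFB, whereas the joined exons of GENCODE 44 measure 8192, 4922, 15574 and 4652 bases. Per kilobase of those exons RUNX2 held the largest share in all 12 samples (47.4% to 53.3%), ahead of RUNX3 (35.1% to 42.5%) and RUNX1 (9.46% to 11.8%). CBFB was then 0.998 to 1.17 times the summed RUNX level. Changes of 1 gene between conditions do not depend on its length.

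**Figure D2:**
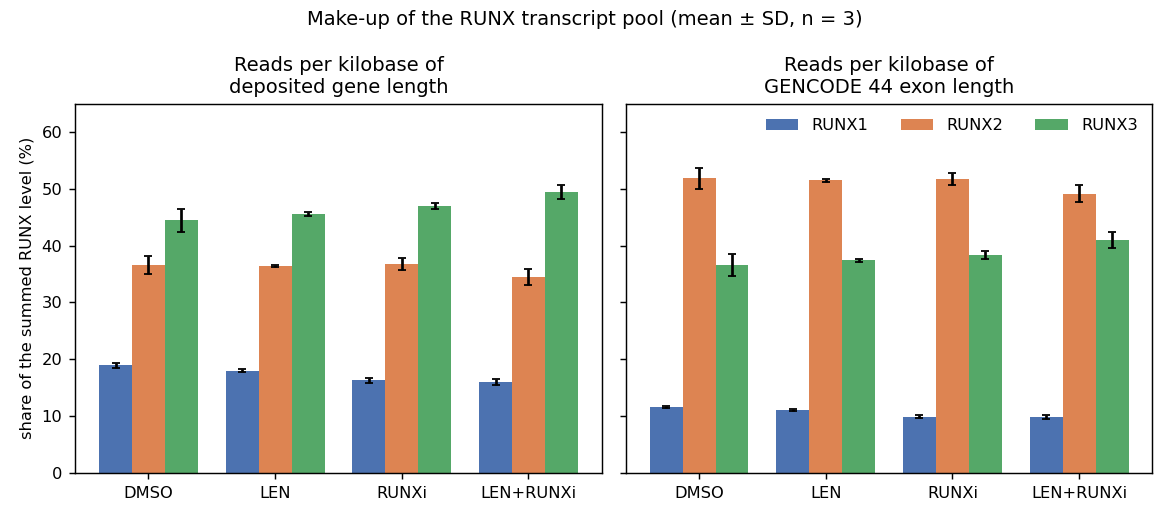
Share of RUNX1, RUNX2 and RUNX3 in their summed level (vertical axis, percent; bars are means and error bars SD of 3 samples) in the 4 conditions, per kilobase of the deposited gene length (left) and of GENCODE 44 exons (right). RUNX3 is the tallest bar on the left (44.4% in DMSO) and RUNX2 on the right (51.8% in DMSO), while the RUNX1 bars are lowest in both.

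A gene was called changed when limma's adjusted p was at most 0.05 and its log2 fold change at least 0.32 in size, and for the interaction by the adjusted p alone. RUNXi against DMSO called 1 of the 6 members, RUNX1, where 1.77% of the 11241 genes tested were called. LEN against DMSO called 0 of 6 by limma (0.649% of all genes), with 0 at an unadjusted p under 0.05. LEN+RUNXi called 0 of 6 against DMSO (2.94% of all genes), against LEN (1.68%) and against RUNXi (3.63%). At an unadjusted p under 0.05 these 3 comparisons had 4, 2 and 2 members, where 23.7%, 20.6% and 33.2% of all genes tested passed. In the interaction, which asks whether the effect of LEN differed when RUNXi was present, 0 of 6 were called (0% of all genes), with 1 member at an unadjusted p under 0.05 (14.4% of all genes). The voom method on reads computed back from the values called 1 member, RUNX1 in RUNXi against DMSO, where it called 2.51% of all genes. It called 0 members in the other tests, where its share of all genes was 0.925% in LEN against DMSO, 3.42%, 1.89% and 3.83% in LEN+RUNXi against DMSO, LEN and RUNXi, and 0.0267% in the interaction. With RUNXi replicate 2 left out, limma called RUNX1 alone of the members in RUNXi against DMSO (3.94% of all genes), and 0 members in LEN+RUNXi against RUNXi (6.82%) and in the interaction (4.95%). The comparisons share samples, so their values for a gene are not independent.

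By adjusted p alone, without the fold threshold, RUNX1 also passed in LEN+RUNXi against DMSO, where 8.64% of all genes did, and RUNX3 and CBFA2T3 passed in LEN+RUNXi against RUNXi, where 15% did. In RUNXi against DMSO 4.55% of all genes passed this way, and RUNX1 was again the 1 member that did. Samples of 2 conditions did not overlap for 1 member in LEN against DMSO (16.4% of all genes), for 2 in RUNXi against DMSO (23.3%) and for 3 in LEN+RUNXi against DMSO (29.2%). They did not overlap for 2 members in LEN+RUNXi against LEN (26.4%) and for 2 in LEN+RUNXi against RUNXi (34.1%). With so few members nothing more was read from these shares, and the values are given gene by gene.

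**Figure D3:**
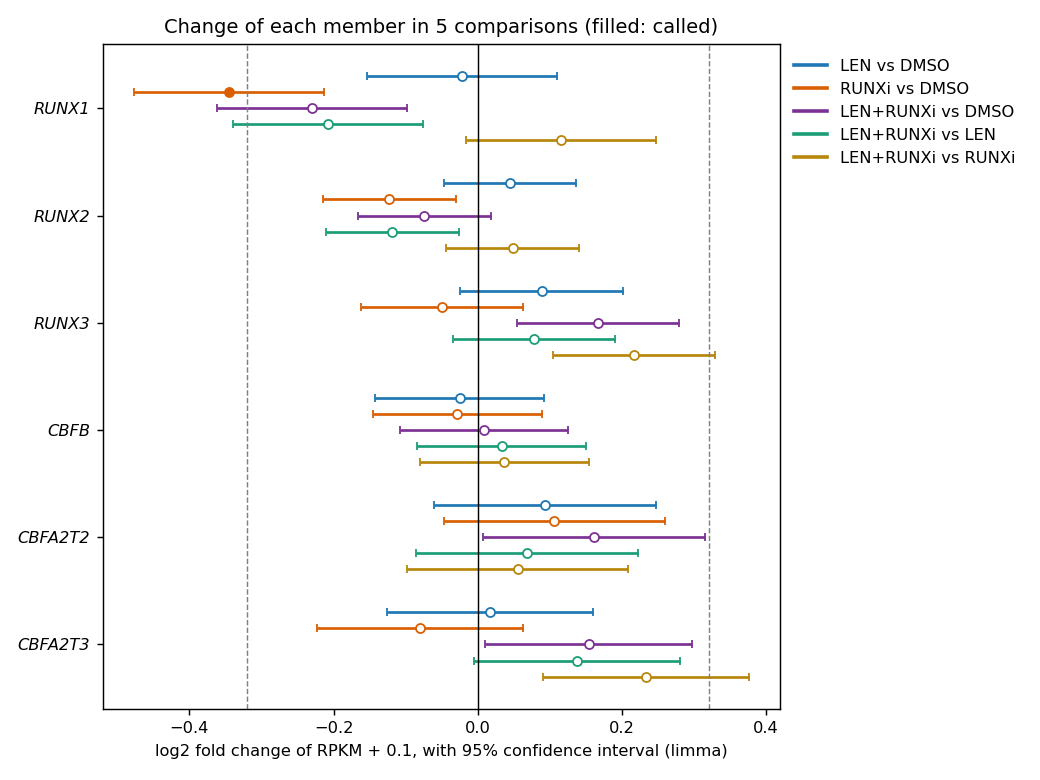
Log2 fold change of RPKM + 0.1 (horizontal axis) with its 95% confidence interval from limma for the 6 expressed members (rows) in 5 comparisons (colours); filled points were called and dashed lines mark a log2 change of 0.32 in either direction. RUNX1 in RUNXi against DMSO (-0.35) is the 1 filled point, and all CBFB intervals include 0.

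RUNX1 fell in RUNXi-treated cells. Its level was 7.85, 8.22 and 7.90 RPKM in the DMSO samples and 6.14, 6.73 and 5.96 RPKM in the RUNXi samples. All 3 RUNXi samples lay below all 3 DMSO samples. The log2 fold change on the scale of RPKM + 0.1 was -0.35 (SE 0.060, 95% CI -0.48 to -0.21, limma adjusted p = 0.00873), a change of -21.3% (CI -28.2% to -13.8%). RUNX1 stood at the 3.09th percentile of log2 fold changes over all genes tested, whose median was 0.0081. Without RUNXi replicate 2 the change was -0.40 (adjusted p = 0.00274). Without RUNXi replicate 3 it was -0.31 (adjusted p = 0.0435), which misses the fold threshold, so this library decided the call. Among the 833 tested genes longer than 10000 bases, the class RUNX1 belongs to, the median log2 fold change was 0.0060. In bulk RNA less RUNX1 RNA per cell and fewer cells that carry it cannot be told apart.

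The mean RUNX1 level was lowest in RUNXi and higher in each of the other conditions. In LEN samples it was 8.08, 7.87 and 7.65 RPKM, overlapping DMSO, with a log2 fold change of -0.02 (CI -0.15 to 0.11, adjusted p = 0.957). In LEN+RUNXi samples it was 7.04, 7.17 and 6.22 RPKM, below all DMSO and all LEN samples. The log2 fold change of LEN+RUNXi was -0.23 against DMSO (CI -0.36 to -0.098, limma adjusted p = 0.0369), which passed the test but not the fold threshold. Without LEN+RUNXi replicate 3, the lowest of its condition, it was -0.17 (adjusted p = 0.107). Leaving out any 1 DMSO sample or LEN+RUNXi replicate 1 gave an adjusted p of 0.0617 to 0.132. With all samples the log2 fold change of LEN+RUNXi was -0.21 against LEN (CI -0.34 to -0.076, adjusted p = 0.0764) and 0.12 against RUNXi (CI -0.016 to 0.25, adjusted p = 0.202, and 0.17 with 0.0671 without RUNXi replicate 2). The interaction was 0.14 (CI -0.048 to 0.32, adjusted p = 0.466), and 0.19 (adjusted p = 0.189) without that library, so a smaller decrease of RUNX1 under both agents than under RUNXi alone was not shown at this spread.

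RUNX2, which carries the 4 motif matches printed above, showed a smaller difference in the same direction. It was read at 14.8, 15.7 and 15.8 RPKM in DMSO and 13.7, 14.6 and 14.3 RPKM in RUNXi. The RUNXi samples lay below the DMSO samples. The log2 fold change of -0.12 (CI -0.21 to -0.031) had an adjusted p of 0.121 by limma and -0.14 without RUNXi replicate 2 (adjusted p = 0.0656). LEN samples had 16.2, 15.8 and 15.8 RPKM and LEN+RUNXi samples 14.3, 15.4 and 14.3 RPKM. The 3 LEN samples sat just above DMSO (log2 fold change 0.04, CI -0.047 to 0.14, adjusted p = 0.818), and the LEN+RUNXi samples lay below LEN (-0.12, CI -0.21 to -0.027, adjusted p = 0.136). Against DMSO the LEN+RUNXi samples overlapped (-0.07, adjusted p = 0.314).

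RUNX3 did not follow RUNX1. It was read at 19.9, 18.5 and 17.8 RPKM in DMSO, 20.04, 20.05 and 19.6 RPKM in LEN, 17.8, 19.1 and 17.4 RPKM in RUNXi and 22.1, 21.2 and 19.9 RPKM in LEN+RUNXi. RUNXi and DMSO samples overlapped (log2 fold change -0.05, CI -0.16 to 0.063, adjusted p = 0.609). This was -0.09 (adjusted p = 0.290) without RUNXi replicate 2. All LEN+RUNXi samples lay above all RUNXi samples, by 0.22 on the log2 scale (SE 0.051, CI 0.10 to 0.33, limma adjusted p = 0.0200), under the fold threshold. That difference was 0.26 (adjusted p = 0.00694) without RUNXi replicate 2. It missed the adjusted p without RUNXi replicate 1 or 3 or LEN+RUNXi replicate 1 or 2 (0.18 to 0.21, adjusted p = 0.0564 to 0.0813). The LEN+RUNXi samples also lay above DMSO, the highest DMSO sample (19.86 RPKM) just under the lowest LEN+RUNXi sample (19.87 RPKM), with a log2 fold change of 0.17 (CI 0.054 to 0.28, adjusted p = 0.0689, and 0.0482 without RUNXi replicate 2). LEN alone gave 0.09 (CI -0.024 to 0.20, adjusted p = 0.615), and the interaction was 0.13 (CI -0.031 to 0.29, adjusted p = 0.433), or 0.17 (adjusted p = 0.181) without RUNXi replicate 2.

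CBFB, whose product the inhibitor separates from RUNX proteins, showed no called difference. It was read at 79.8, 85.1 and 91.2 RPKM in DMSO, 83.1, 81.8 and 86.5 in LEN, 79.5, 87.9 and 83.6 in RUNXi and 86.5, 89.3 and 81.7 in LEN+RUNXi. Every pair of conditions overlapped. The log2 fold changes in the 5 comparisons ranged from -0.03 to 0.04, and in RUNXi against DMSO the interval ran from -0.15 to 0.089 (limma adjusted p = 0.80). In percent that interval runs from -9.58% to 6.35%. In the fit without RUNXi replicate 2 the log2 fold changes ranged from -0.06 to 0.07, with -0.06 in RUNXi against DMSO (adjusted p = 0.490). In each of the 3 treatments the sign of the CBFB difference from DMSO changed when certain single samples were left out.

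Of the corepressor genes, CBFA2T3, which acts in blood progenitors, made up 85.2% to 88.4% of the CBFA2T2 and CBFA2T3 sum. CBFA2T3 was read at 16.4, 15.2 and 15.9 RPKM in DMSO, 15.0, 16.8 and 16.3 in LEN, 14.3, 16.5 and 14.1 in RUNXi and 18.0, 18.1 and 16.7 in LEN+RUNXi. The RUNXi samples were spread widely, replicate 2 being the high one, and overlapped DMSO (log2 fold change -0.08, CI -0.22 to 0.063, adjusted p = 0.509). Without that library the difference was -0.15 (adjusted p = 0.103). LEN+RUNXi samples lay above all RUNXi samples, with a log2 fold change of 0.23 (SE 0.065, CI 0.090 to 0.38, limma adjusted p = 0.0350), under the fold threshold. Without RUNXi replicate 2 it was 0.31 (adjusted p = 0.00437). It missed the adjusted p without RUNXi replicate 1 or 3 or LEN+RUNXi replicate 1 or 2 (0.19 to 0.22, adjusted p = 0.103 to 0.134). The LEN+RUNXi samples lay above all DMSO samples too (0.15, CI 0.011 to 0.30, adjusted p = 0.178). The interaction of 0.22 (CI 0.015 to 0.42) had an adjusted p of 0.331, and without RUNXi replicate 2 it was 0.29 (adjusted p = 0.0545).

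CBFA2T2 was the least abundant expressed member, at 2.35, 2.47 and 2.08 RPKM in DMSO, 2.51, 2.43 and 2.42 in LEN, 2.50, 2.52 and 2.41 in RUNXi and 2.53, 2.75 and 2.46 in LEN+RUNXi. Each treatment overlapped DMSO. The log2 fold changes against DMSO were 0.09 for LEN, 0.11 for RUNXi and 0.16 for LEN+RUNXi, with limma adjusted p of 0.748, 0.409 and 0.188. The value for RUNXi was 0.09 (adjusted p = 0.486) without RUNXi replicate 2. The third corepressor gene, RUNX1T1, was not detectable in any condition at this depth.

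Genes whose products work with RUNX proteins were described from lists chosen with earlier results of these data known. The largest holds 24 coregulators, such as the acetyltransferases EP300 and CREBBP, the Groucho-type corepressors TLE1 to TLE4, and histone deacetylases. Of these, 21 were tested and 0 were called by limma or voom in any of the 6 tests. At an unadjusted p under 0.05 there were 1 to 6, where 10.7% to 33.2% of all genes tested passed. The count of 6 was reached in RUNXi against DMSO (21.9% of all genes) and in LEN+RUNXi against LEN (20.6%). When RUNXi replicate 2 was left out limma called 1, the histone deacetylase gene HDAC4, in RUNXi against DMSO (-0.36, adjusted p = 0.00335). In LEN+RUNXi against DMSO TLE1 had 0.29 (limma adjusted p = 0.0253), under the fold threshold. It was called there without DMSO replicate 1 (0.33, adjusted p = 0.0314) and without LEN+RUNXi replicate 3 (0.36, adjusted p = 0.00968). The most abundant coregulators were the arginine methyltransferase gene PRMT1 (184 RPKM), the gene listed as AES, now TLE5, a short Groucho-family protein (129 RPKM), and HDAC1 (90.3 RPKM). The median log2 fold change of the coregulators in RUNXi against DMSO was -0.029, beside 0.0081 over all genes, and -0.012 without RUNXi replicate 2. Of 18 enzymes that modify or degrade RUNX proteins 17 were tested and 0 were called by limma. At an unadjusted p under 0.05 there were 0 to 6, the 6 in LEN+RUNXi against RUNXi (33.2% of all genes). Voom called 1, the ubiquitin ligase gene STUB1, in LEN+RUNXi against RUNXi. On leaving out RUNXi replicate 2, limma called STUB1 there (0.60, adjusted p = 0.000881), in RUNXi against DMSO (-0.47, adjusted p = 0.00417) and in the interaction (0.71, adjusted p = 0.00970). Abundant members were CDC20 (136 RPKM) and CDK1 (55.5 RPKM), and the median of the list in RUNXi against DMSO was 0.015 (0.042 without RUNXi replicate 2). Of 9 transcription factors that bind the CBFA2T corepressors, 6 were tested and 0 were called by limma or voom. Among them were TCF3 (86.8 RPKM), ZBTB33 (18.4 RPKM) and TCF12 (17.5 RPKM). At an unadjusted p under 0.05 there were 0 to 4 of the 6, the 4 in LEN+RUNXi against LEN (20.6% of all genes). Their median in RUNXi against DMSO was -0.055 (-0.094 without RUNXi replicate 2). Without that library TCF12 passed the adjusted p in the interaction (-0.25, adjusted p = 0.0215).

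Among 20 transcription factors that act beside RUNX proteins on DNA, 12 were tested, and the most abundant were MYB (45.3 RPKM), ELF1 (43.4 RPKM) and IKZF3 (22.3 RPKM). SMAD3, a transducer of TGF-β signals, rose in LEN+RUNXi against DMSO, from 1.11, 0.98 and 0.97 RPKM to 1.94, 1.55 and 1.71 RPKM, with no overlap. Its log2 fold change was 0.71 (SE 0.10, limma adjusted p = 0.00192), and against RUNXi 0.38 (adjusted p = 0.0318). That second call was lost without any 1 RUNXi sample and without LEN+RUNXi replicate 1 or 3 (log2 fold change 0.30 to 0.43, adjusted p = 0.0618 to 0.117). With 1 agent alone SMAD3 was read at 1.39, 1.20 and 1.36 RPKM in LEN and 1.40, 1.20 and 1.32 RPKM in RUNXi. All of these samples also lay above all DMSO samples. JUN, a component of AP-1, rose in LEN+RUNXi against RUNXi by 0.37 (SE 0.093, adjusted p = 0.0248), from 8.07, 10.3 and 7.68 RPKM to 11.4, 11.1 and 10.9 RPKM. Without RUNXi replicate 2 the JUN difference was 0.49 (adjusted p = 0.000996), and the call was lost without RUNXi replicate 1 or 3 or LEN+RUNXi replicate 1 or 2 (0.29 to 0.37, adjusted p = 0.0620 to 0.101). ETS1, which binds DNA together with RUNX1, was lower in LEN+RUNXi than in LEN by 0.39 on the log2 scale (SE 0.064, adjusted p = 0.00521), with 2.14, 2.11 and 2.19 RPKM in LEN and 1.59, 1.61 and 1.62 RPKM in LEN+RUNXi. It was read at 1.74, 1.85 and 1.71 RPKM in DMSO and 1.62, 1.77 and 1.72 RPKM in RUNXi. The LEN samples thus lay above those of all other conditions. In RUNXi against DMSO and in LEN against DMSO 0 of the 12 were called by limma, and voom called 1 (SMAD3) and 0. At an unadjusted p under 0.05 these comparisons had 6 and 4 of the 12, where 21.9% and 10.7% of all genes tested passed. IKZF3 was read at 22.4, 23.0 and 23.3 RPKM in DMSO and 18.4, 20.1 and 17.3 RPKM in RUNXi (log2 fold change -0.30, adjusted p = 0.00705, under the fold threshold). IKZF3 was called without RUNXi replicate 2 (-0.36, adjusted p = 0.000587). IKZF1 was read at 13.0 to 13.5 and 14.2 to 14.7 RPKM.

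Of 35 textbook RUNX target genes of blood cells, 11 reached 0.5 RPKM and were tested. ITGAL, which encodes the αL chain of the integrin LFA-1 and carries RUNX sites known to drive it in leukocytes, fell with RUNXi. It was read at 88.7, 84.1 and 82.0 RPKM in DMSO, 95.5, 98.6 and 98.0 in LEN, 50.8, 51.6 and 54.0 in RUNXi and 57.2, 58.8 and 56.6 in LEN+RUNXi. The 4 conditions did not overlap, and both conditions with RUNXi lay below both without it. The log2 fold change was -0.70 in RUNXi against DMSO (SE 0.036, limma adjusted p = 6.19e-07), -0.56 in LEN+RUNXi against DMSO (adjusted p = 3.57e-06) and -0.76 in LEN+RUNXi against LEN (adjusted p = 2.27e-07). Without RUNXi replicate 2 the first of these was again -0.70 (adjusted p = 5.11e-06). ITGAL lies at chr16:30472658-30523567 on the plus strand of GRCh38. CDKN1A, the cell cycle inhibitor p21, fell in LEN+RUNXi against LEN by 0.90 on the log2 scale (SE 0.21, adjusted p = 0.0295) on 18 to 68 reads per sample in these conditions. The CDKN1A call was lost when any 1 LEN or LEN+RUNXi sample was left out (log2 fold change -1.01 to -0.77, adjusted p = 0.0535 to 0.128). The other 9 tested targets, among them MYB (log2 fold change 0.17 in RUNXi against DMSO, adjusted p = 0.0212, and 0.19 with 0.00896 without RUNXi replicate 2), CDK6 (54.2 RPKM) and BCL2, were not called by limma in any of the 5 comparisons. Voom called PRKCQ, which encodes protein kinase C theta, in LEN+RUNXi against DMSO (0.34, adjusted p = 0.0194) and against RUNXi (0.33, adjusted p = 0.0185), where limma gave 0.31 and 0.30 (adjusted p = 0.0771 and 0.0606). By limma, leaving out LEN+RUNXi replicate 3 called BCL2 in LEN+RUNXi against DMSO (0.33, adjusted p = 0.0123). Leaving out RUNXi replicate 2 called the lipoxygenase gene ALOX12 in LEN+RUNXi against RUNXi (0.42, adjusted p = 0.0282), as well as CDKN1A in LEN+RUNXi against DMSO (-0.70, adjusted p = 0.0211). The median of the 11 in RUNXi against DMSO was 0.010, beside 0.0081 over all genes, and 0.020 without RUNXi replicate 2. At an unadjusted p under 0.05 by limma, LEN+RUNXi had 7 of the 11 against DMSO (23.7% of all genes), 5 against LEN (20.6%) and 6 against RUNXi (33.2%). There were 3 in RUNXi against DMSO (21.9%), 2 in LEN against DMSO (10.7%) and 1 in the interaction (14.4%). By limma CCND3 had 0.24 in LEN+RUNXi against DMSO (adjusted p = 0.0142) and 0.25 against LEN (0.0155), under the fold threshold. Against RUNXi its adjusted p was 0.0215. Of 9 RUNX2 target genes of bone 1 was tested, VEGFA (17.2 RPKM), and it was not called by limma or voom. Its unadjusted p by limma was under 0.05 in LEN, RUNXi and LEN+RUNXi against DMSO, where 10.7%, 21.9% and 23.7% of all genes passed.

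**Figure D4:**
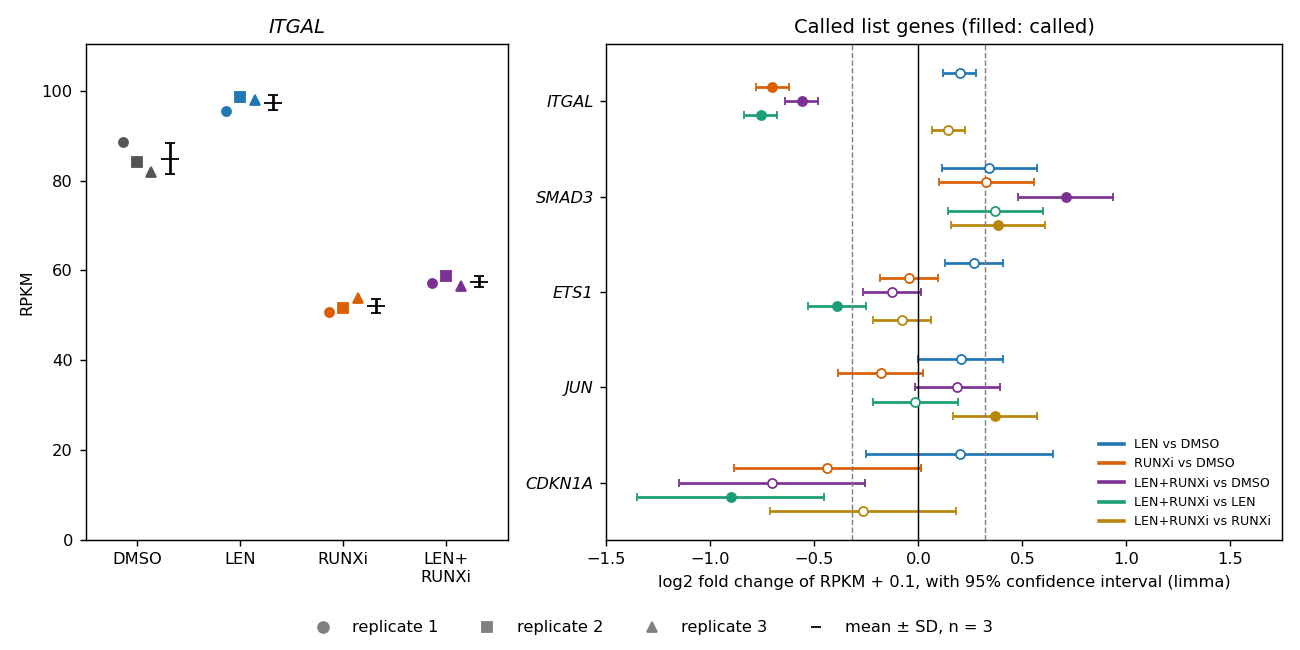
Left, RPKM of ITGAL (vertical axis, from 0) in the 12 samples, with the mean ± SD of each condition; the RUNXi and LEN+RUNXi points (50.8 to 58.8) lie below the DMSO and LEN points (82.0 to 98.6). Right, log2 fold change of RPKM + 0.1 with 95% confidence intervals for the 5 called list genes in 5 comparisons, filled where called.

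Changes of RUNX1 were set beside those of the genes next to it on the chromosome, and likewise for the other members. The nearest tested protein-coding genes on either side, 15 in all with SUPT3H, had log2 fold changes from -0.31 to 0.16 in RUNXi against DMSO (-0.24 to 0.16 without RUNXi replicate 2). RCAN1 and SETD4, which flank RUNX1, had 0.04 and -0.08 (adjusted p = 0.702 and 0.468), beside -0.35 for RUNX1 itself. They had 0.09 and -0.05 (adjusted p = 0.370 and 0.670) without RUNXi replicate 2. By limma and by voom 0 of the 15 were called in any of the 5 comparisons. At an unadjusted p under 0.05 there were 0 to 5, where 10.7% to 33.2% of all genes tested passed. Of 4 noncoding RNAs named after RUNX loci, 1 was matched in the table, RUNX1-IT1, which lies within RUNX1 and had at most 3 reads in a sample.

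The genes whose log2 levels were most like those of a member over the 12 samples were found among the 10046 genes that averaged 1 RPKM or more. For RUNX1 they included FOXO3 (Pearson r = 0.96) and PLEC (0.95). For RUNX3 they were ST3GAL2 (0.98), MAP3K11 (0.97) and MKNK2 (0.97), for CBFA2T3 C19orf60 (0.97), DAPK3 (0.97) and VASP (0.96), and for RUNX2 SKA2 (0.93), PABPC1 (0.92) and AGO3 (0.92). CBFB had its closest match in CBX1 (0.93) and CBFA2T2 in TSSC1 (0.84). Once the mean of each condition was removed, FOXO3 still stood first for RUNX1 (0.97) and CBX1 for CBFB (0.97), whereas FBXL6 (0.98) was first for CBFA2T3, CASK (0.94) for RUNX2 and FTSJ1 (0.90) for CBFA2T2. Between members, RUNX1 and RUNX2 had r = 0.87 and RUNX3 and CBFA2T3 r = 0.84, or 0.59 and 0.67 with condition means removed. These points are 12 libraries that share treatment and depth differences, and with so many genes compared the highest r is a description of likeness alone.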

How the data were processed

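Poly(A) RNA of OPM-1 cells was sequenced in 3 samples of each of 4 conditions, 12 in all. Per the labels and the study's methods, reads were aligned to GRCh38 with STAR after FastQC, and Cuffnorm and DESeq2 are named among the tools; the tools' versions and the strand setting of counting are not given in the sources used here. The authors deposited RPKM values for 38478 genes beside their gene lengths, under headers that name featureCounts. Of these genes 28 carry a spreadsheet date number in place of a name. Values multiplied by gene length and divided by the smallest step of a sample gave whole reads for 100% of values, within 0.05 of a read. All 12 sample columns were matched to samples by their titles.

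The 11241 genes that averaged 0.5 RPKM or more were compared on log2(RPKM + 0.1) by limma 3.58.1 (R 4.3.3), fitting all 12 samples, 1 mean per condition, no replicate block, a variance trend and Benjamini-Hochberg adjustment over all genes tested. This pseudocount understates the change of low genes. The fixed plan left the unit of the values open and named limma in place of the count test of the study's methods, and the values turned out to be RPKM. The test was tested on simulated data before use. A gene was called at an adjusted p up to 0.05 together with a log2 fold change of 0.32 or more in size (for the interaction, the adjusted p alone). Alternatives were a pseudocount of 1 or 0.01, a filter at a mean of 1 or at any value above 0, quantile normalization, rescaling by median ratios, fitting only the compared conditions, a replicate block, no variance trend, other fold thresholds, voom on the reads computed back, and leaving out each sample.

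The members and lists were chosen with earlier results of these data known. Named genes were all 7 members, the genes of each list called in any of the 5 comparisons with the 3 most abundant of each list, the tested neighbours, and the 3 genes most like each member. Some genes this rule names are not reported here. EP300, CREBBP, TLE1 to TLE4, BCL2, CCND3, IKZF1, STUB1, HDAC4, PRKCQ and ALOX12 were named outside this rule, with their values known. Of 155 list genes 152 were matched, 1 of them through an older symbol. Exon lengths and positions are from GENCODE 44, promoter sequences from RefSeq (GRCh38.p14). Further software was Python 3.11.15 with pandas 2.3.3, numpy 2.4.6 and, for figures, matplotlib 3.10.9.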

Additional observations from a re-analysis of the deposited data

How the results depend on the processing

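Of 852 member fold changes recomputed under an alternative, 829 kept their direction and their side of the call, 3 lost the call, 3 gained it and 17 changed sign, all of these uncalled. On leaving out 1 sample at a time, CBFB ranged from -0.072 to 0.024 in LEN against DMSO, from -0.076 to 0.021 in RUNXi against DMSO and from -0.039 to 0.058 in LEN+RUNXi against DMSO, where median-ratio rescaling gave -0.012. CBFA2T3 in LEN against DMSO ranged from -0.019 to 0.065, the CBFA2T2 interaction from -0.089 to 0.030 and the RUNX2 interaction (0.0039) from -0.032 to 0.033, with -0.0079 after median-ratio rescaling and -0.011 after quantile normalization. RUNX1 in RUNXi against DMSO ranged from -0.40 to -0.31 over 22 alternatives, and limma's adjusted p (0.000116 to 0.0461) passed in all 22. The members called in that comparison went from 1 to 0 with a pseudocount of 1 (RUNX1 -0.31) and with a 1.5-fold threshold, and were 0 to 1 when 1 sample at a time was left out. With no fold threshold the members called were 1 in LEN+RUNXi against DMSO and 2 in LEN+RUNXi against RUNXi, against 0 in each. RUNX1 passed the adjusted p in LEN+RUNXi against DMSO in 14 of 22 alternatives, RUNX3 in LEN+RUNXi against RUNXi in 17 and CBFA2T3 in 15. Calls of list genes were counted over the 6 lists of coregulators, modifying enzymes, CBFA2T-binding factors, partner factors and RUNX targets of blood and bone, without the members and the cell type markers. With no fold threshold the list genes called were 1 in LEN against DMSO (0 otherwise), 4 in RUNXi against DMSO (1), 8 in LEN+RUNXi against DMSO (2), 7 in LEN+RUNXi against LEN (3) and 11 in LEN+RUNXi against RUNXi (2). Voom called 2 list genes in RUNXi against DMSO, 4 in LEN+RUNXi against DMSO and 4 in LEN+RUNXi against RUNXi, and the 1.5-fold threshold 1 in LEN+RUNXi against DMSO and 0 in LEN+RUNXi against RUNXi. In this last comparison 1 list gene was called with a pseudocount of 1 and 1 after quantile normalization, and 0 with every gene above 0 tested or with only the compared conditions fitted. Leaving out 1 sample gave 1 to 4 list genes in RUNXi against DMSO, 2 to 4 in LEN+RUNXi against DMSO, 0 to 4 in LEN+RUNXi against RUNXi and 0 to 3 in the interaction. The highest count in RUNXi against DMSO came without RUNXi replicate 2, where HDAC4 (-0.36), IKZF3 (-0.36) and STUB1 (-0.47) joined ITGAL (-0.70), and the 3 interaction calls, STUB1 and TCF12 among them, came without the same library. The causes of these differences were not tested.

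Samples of different conditions were correlated over the genes tested, after the mean of each condition was removed from the log2 levels. What is compared is thus the deviation of a sample from its condition, not its level. Samples with the same replicate number had a mean r of 0.052 over 18 pairs, with 2 above 0.1. Those with different numbers had a mean r of -0.026 over 36 pairs, with 0 above 0.1. Of 12 samples, 10 correlated best, among the samples of other conditions, with a sample of their own number. The main fit still took the number as a name, because no block is stated in the study's methods. Whether the numbers mark shared batches was not tested. The replicate block added 4 calls of list genes. RUNX1 in RUNXi against DMSO then had -0.35 (SE 0.047, limma adjusted p = 0.00322), beside an SE of 0.060 without the block. It gave 2 in RUNXi against DMSO in place of 1, SMAD3 joining ITGAL, and added CDKN1A in LEN+RUNXi against DMSO (adjusted p = 0.0335), SMAD3 in LEN+RUNXi against LEN (adjusted p = 0.0234) and STUB1 in LEN+RUNXi against RUNXi (adjusted p = 0.0471). No member call changed with the block. Depth limits CBFA2T2, the member with the fewest reads, and CDKN1A, with 18 reads in its sparsest LEN or LEN+RUNXi sample.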

Other observations

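Among the plasma cell markers, SLAMF7, a surface receptor of plasma cells, was read at 17.9, 20.2 and 19.6 RPKM in DMSO and at 31.0, 29.6 and 32.8 RPKM in RUNXi. All RUNXi samples lay above all DMSO samples, and the log2 fold change was 0.69 (SE 0.065, limma adjusted p = 0.000113), or 0.73 (adjusted p = 0.000208) without RUNXi replicate 2. In LEN+RUNXi it was at 20.4, 21.2 and 23.7 RPKM, lower than in RUNXi by 0.52 on the log2 scale (adjusted p = 0.00110). XBP1, the transcription factor of the secretory program, had a log2 fold change of 0.31 in RUNXi against DMSO (adjusted p = 0.00103, under the fold threshold) and fell in LEN+RUNXi against RUNXi by 0.35 (SE 0.039, adjusted p = 0.000609). Without RUNXi replicate 2 XBP1 was called in RUNXi against DMSO (0.36, adjusted p = 0.000110), and in LEN+RUNXi against RUNXi SLAMF7 had -0.55 and XBP1 -0.40. The interaction of both agents had an adjusted p of 0.155 for SLAMF7 and 0.278 for XBP1, and of 0.0147 and 0.0184 without RUNXi replicate 2. The remaining 7 plasma cell markers were not called in these 2 comparisons.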
